A study of Mus musculus with 9 samples.

Results

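The genes described here encode the proteasome and the proteins that build and regulate it. They are the 49 protein-coding genes, of 29237 in the deposited table, whose symbols open with Psma, Psmb, Psmc, Psmd, Psme, Psmf or Psmg and a digit. Messenger RNA was measured in heart libraries (the labels name no finer region) of wild-type C57BL/6 mice aged 8 to 12 weeks, in 3 groups of 3 libraries. The groups are labelled Control, DOX and TPTN, and the design text calls them normal, DOX model and TPTN treated. DOX is the usual short name of doxorubicin, an anthracycline that can injure heart muscle, although the labels spell out neither name and give no dose or day. They do not say whether the TPTN mice were also given DOX, nor whether libraries of a group came from separate animals, so the p-values measure the spread between these libraries, which may be technical. Values are FPKM, fragments counted per kilobase of transcript and scaled to the library's mapped fragments, so levels can be compared between genes per length.

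The proteasome is the protease that degrades most short-lived and damaged proteins in the cytosol and nucleus once they carry a ubiquitin chain. Its 20S core is a barrel of alpha and beta rings, in which only the beta subunits encoded by Psmb5, Psmb6 and Psmb7 cut peptide bonds. Interferon-inducible Psmb8, Psmb9 and Psmb10 can take their places to form the immunoproteasome. The 19S cap binds ubiquitin, removes it, unfolds the substrate with a ring of ATPases and feeds it into the core. When proteasome activity falls short, the transcription factor encoded by Nfe2l1 is known to raise subunit genes together through antioxidant response elements in their promoters. Heart muscle, whose cells are rarely replaced, depends on this turnover of sarcomere and other proteins.

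Upstream sequence is shown for Psmb6 and Psma7, the 20S genes that passed the test in a comparison below, and for Psmb5, the most abundant member. The sequences are RefSeq windows on GRCm38.p6, read 5′ to 3′ on the strand of the gene, and hold only bases before the start site that lie in no annotated exon. Capitals mark matches on either strand to the core of the antioxidant response element (TGACNNNGC) or to a GC box (GGGCGG), the motif of Sp-family factors. The windows are chr11:70525107-70525356 (plus strand) for Psmb6, chr14:54618023-54618245 (minus strand) for Psmb5 and chr2:180042465-180042508 (minus strand) for Psma7.
Psmb6: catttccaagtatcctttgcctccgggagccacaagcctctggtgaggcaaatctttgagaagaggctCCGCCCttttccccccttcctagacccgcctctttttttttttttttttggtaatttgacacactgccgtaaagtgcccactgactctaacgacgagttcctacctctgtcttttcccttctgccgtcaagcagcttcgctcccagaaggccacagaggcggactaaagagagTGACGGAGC
Psmb5: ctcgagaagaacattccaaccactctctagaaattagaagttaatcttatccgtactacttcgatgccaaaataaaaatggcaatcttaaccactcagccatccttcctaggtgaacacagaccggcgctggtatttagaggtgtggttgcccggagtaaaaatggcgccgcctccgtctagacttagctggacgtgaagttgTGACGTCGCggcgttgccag
Psma7: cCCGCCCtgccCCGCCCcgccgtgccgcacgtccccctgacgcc
Psmb6 and Psmb5 each held 1 match to the antioxidant response element core, and the Psma7 stretch held 2 GC boxes and none of that core. Windows of 300 bases, from 250 before to 50 after the start, were found for 41 of the 49 genes, in 44 windows. The antioxidant core was present in 13.6% of these windows and in 12.4% of all 32851 windows of that length, so this motif was about as frequent in the proteasome set as elsewhere. GC boxes were present in 54.5% against 35.7%, the CCAAT box in 31.8% against 37.4%, and the interferon response core (GAAA, any 2 bases, GAAA) in 11.4% against 3.44%. The 5 genes with the interferon core were Psmb3, Psmd4, Psmd9, Psme1 and Psmg4, and none of the 3 immunoproteasome genes had it in this window.

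Of the 49 genes, 48 had a mean of at least 0.5 FPKM over the 9 libraries and entered the tests. The exception was Psma8, an alpha subunit known from testis, at 0.143 FPKM. Psmc3ip matches by its symbol only: its product acts in meiotic recombination and is no proteasome subunit, and at 0.669 FPKM it was the least abundant of the 48. Proteasome genes were well expressed in these hearts, with a median of 15.6 FPKM against 3.07 for all 12500 tested genes, and 34 of the 48 reached 10 FPKM, a level that 19.5% of all tested genes reached. Psmb5 was highest at 79.0 FPKM, followed by the ATPase gene Psmc3 at 60.5 and the alpha subunit gene Psma6 at 59.1. Although each constitutive subunit is present in fixed copy number in the assembled particle, the mean levels of the 31 tested 20S and 19S subunit genes spanned 11.4-fold, from 6.93 FPKM for the lid gene Psmd11 to Psmb5. Neighbours in that order, such as Psmb6 at 36.0 FPKM, Psmb2 at 35.8 and Psmb4 at 35.5, did not differ beyond the spread of their libraries.

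Some levels are uncertain because reads can be shared. Of the 31-base words of Psmb5, 74.0% also occur in other annotated genes, as do 66.8% for Psmb3, 64.0% for Psma5, 78.4% for Psme2b and 66.2% for Psme2, the last pair being near copies of each other. For the members that passed a test the share was 15.4% in Psmb6, 2.04% in Psmd13 and 0% in Psma7. Psmd13 overlaps Sirt3 on the opposite strand by 342 bases. On its own strand, Psme2b overlaps the protein-coding gene Gm12185 by 837 bases. Psmg3 likewise overlaps Gm26938 by 2816 bases and shares 24.4% of its words with it, so reads of these members may belong to either gene. Psma2 and Psmd1 also overlap protein-coding genes on their own strand.

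The libraries as a whole set the frame for these values. Transcripts of the mitochondrial genome took 49.8 to 50.9% of summed FPKM in control, 44.7 to 46.2% in DOX and 48.1 to 48.7% in TPTN, and estimated depth was about 18300000 to 24300000 fragments. Because FPKM is a share of the library, values of all nuclear genes rise where the mitochondrial share falls, and leaving the mitochondrial genes and their 7 abundant nuclear copies out of the library total moved the median change of all genes in DOX against control from 0.04 to -0.07 on the log2 scale. With it the genes past the threshold in that comparison went from 279 higher and 50 lower to 61 higher and 209 lower, and in TPTN against DOX from 99 higher and 308 lower to 542 higher and 129 lower. With median-ratio factors these counts were 110 and 63 in the first comparison and 149 and 280 in the second. All 8 heart muscle markers listed were present throughout (Myh6 averaged 2359 FPKM and Tnnt2 640), and 3 of them passed in DOX against control: Myl2 was higher by 0.38 on the log2 scale (adjusted p = 0.0339), Tnni3 was higher by 0.28 (adjusted p = 0.0412) and Ryr2 fell by 0.56 (adjusted p = 0.0327). The heart muscle markers that passed thus moved in both directions in that comparison, and their part in the members' changes was not tested. Without mitochondrial genes in the total, Myl2 and Tnni3 did not pass (adjusted p = 0.0994 and 0.200), while Ryr2 did (adjusted p = 0.026). Summed atrial markers were 2555 FPKM in DOX replicate 1 and 52.9 to 291 in the other 8 libraries, in which Myl7 was at most 0.889 FPKM. That library stands apart, and member calls that change without it are given both ways. In bulk tissue, fewer cells of a type and less RNA per cell cannot be told apart.

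In DOX hearts 2 proteasome genes, 1 of the core and 1 of the cap, were higher than in control by 0.34 to 0.39 on the log2 scale, and no other subunit passed the test. Of the 48 tested genes, these 2 rose past an adjusted p of 0.05 (limma, Benjamini-Hochberg over 12500 genes) and none fell. They were Psmb6, the catalytic subunit with caspase-like activity, and Psmd13, a lid subunit of the cap. Among all tested genes 2.23% rose and 0.4% fell, so 2 of 48 is close to the background.

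Psmb6 (chromosome 11, 70525367 to 70527858, GRCm38) read 33.1, 29.7 and 33.1 FPKM in the control libraries, 39.6, 42.1 and 44.5 in the DOX group and 30.3, 34.9 and 36.3 in the TPTN group. All 3 DOX libraries lay above all 6 others. The change from control to DOX was 0.39 on the log2(FPKM + 1) scale (SE 0.08, adjusted p = 0.0373), and from DOX to TPTN it was -0.31 (SE 0.08, adjusted p = 0.0692). Psmd13 (chromosome 7, 140881968 to 140898643) read 13.6, 13.03 and 14.0 FPKM in the control libraries, 16.8, 18.9 and 16.6 in the DOX group and 13.1, 14.7 and 14.8 in the TPTN group. Here too the DOX libraries did not overlap either other group. Its change was 0.34 in DOX against control (SE 0.07, adjusted p = 0.0405) and -0.28 in TPTN against DOX (SE 0.07, adjusted p = 0.0677). Neither call was stable: Psmb6 passed in 3 and Psmd13 in 1 of the 9 fits that left out a single library, with adjusted p up to 0.137 and 0.143. Without DOX replicate 1 the adjusted p was 0.0453 for Psmb6 and 0.0540 for Psmd13. Both stayed higher in DOX under every scaling, by 0.23 to 0.39 for Psmb6 and 0.18 to 0.34 for Psmd13, but their adjusted p was then 0.0734 to 0.165.

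Psma7, an alpha-ring subunit, was the gene that fell between DOX and TPTN. Psma7 (chromosome 2, 180036374 to 180042433) read 18.7, 17.9 and 19.7 FPKM in the control libraries, 22.4, 25.2 and 24.8 in the DOX group and 15.8, 19.1 and 18.8 in the TPTN group. The TPTN libraries sat in or below the control range and wholly below the DOX libraries. The change in TPTN against DOX was -0.42 on the log2 scale (SE 0.08, adjusted p = 0.0303), and in DOX against control it was 0.35 (SE 0.08, adjusted p = 0.0551). It was 1 of 48 members to fall past the threshold in TPTN against DOX, where 2.46% of all genes fell and 0.792% rose, and no member rose. This call held under median-ratio, quantile and non-mitochondrial scaling, with changes of -0.40, -0.32 and -0.29 (adjusted p = 0.0324, 0.0455 and 0.0463). It did not hold once a trend on transcript length and GC content was removed (-0.29, adjusted p = 0.0753), nor without DOX replicate 2 or 3 or any single TPTN library (highest adjusted p = 0.1001).

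**Figure D1:**
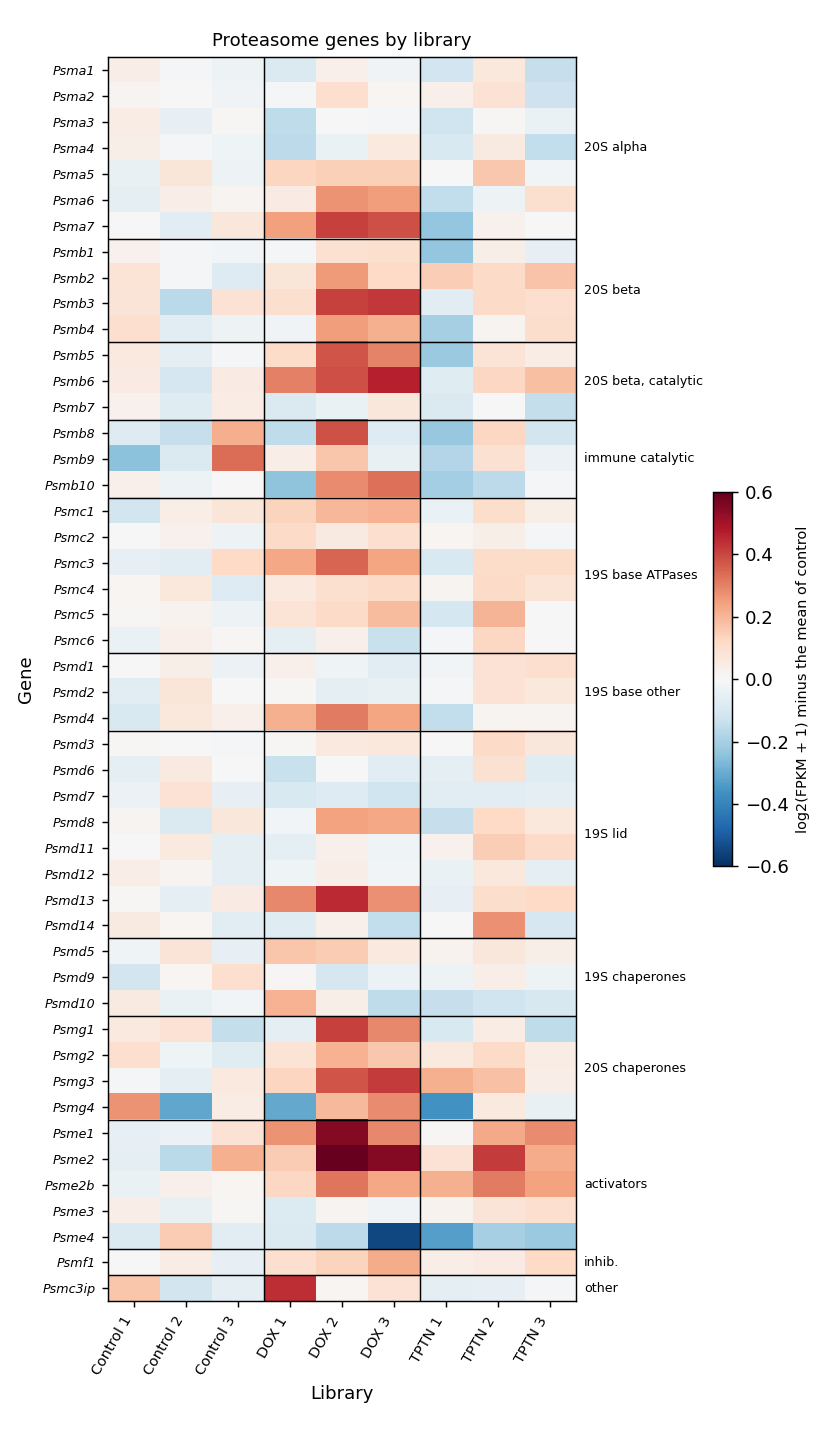
Heat map of 48 proteasome genes (lines, grouped by role) in 9 libraries (columns), coloured by log2(FPKM + 1) minus the mean of the 3 control libraries. Psma7, Psmb6 and Psmd13 are red in all 3 DOX libraries, while most 19S lid genes stay near 0.

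The 3 constitutive catalytic genes did not move as a unit. Psmb5, with chymotrypsin-like activity, read 77.6, 71.7 and 74.0 FPKM in the control libraries, 80.4, 96.9 and 91.6 in the DOX group and 63.5, 78.9 and 76.8 in the TPTN group. The DOX libraries were the 3 highest, yet the change of 0.26 (SE 0.09) did not pass (adjusted p = 0.176). Psmb7, with trypsin-like activity, read 30.0, 27.9 and 30.3 FPKM in the control libraries, 27.6, 28.6 and 30.9 in the DOX group and 27.6, 29.3 and 26.6 in the TPTN group. Its groups overlapped in every comparison, with a change of -0.02 (SE 0.07) in DOX against control. The ratio of Psmb6 to Psmb7, which a single factor per library cannot move, was 1.10, 1.06 and 1.09 in the control libraries, 1.43, 1.47 and 1.44 in the DOX group and 1.10, 1.19 and 1.37 in the TPTN group. It was therefore higher in every DOX library than in any other, with TPTN replicate 3 the nearest. A library trend on transcript length or GC content can move this ratio. Psmb6 has 798 bases and 55.8% GC, and Psmb7 has 1160 bases and 48.7%.

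None of the 3 immunoproteasome genes passed in any comparison over all 9 libraries. Psmb8 and Psmb9 were low, at 2.96 and 1.67 FPKM on average, while Psmb10 averaged 14.0 FPKM, close to the median of the members. Together they came to 10.7 to 14.4% of the summed constitutive catalytic genes, with overlapping groups. Psmb8 read 2.73, 2.58 and 3.58 FPKM in the control libraries, 2.54, 4.14 and 2.74 in the DOX group and 2.37, 3.29 and 2.65 in the TPTN group. Psmb9 read 1.22, 1.48 and 2.33 FPKM in the control libraries, 1.71, 1.96 and 1.56 in the DOX group and 1.34, 1.81 and 1.57 in the TPTN group. In both, the libraries of a group differed among themselves by more than the groups did. Psmb10 read 14.1, 13.5 and 13.9 FPKM in the control libraries, 11.5, 17.0 and 17.7 in the DOX group and 11.9, 12.3 and 13.8 in the TPTN group. Only DOX replicate 1, the library with high atrial markers, was low within its group, and without it the change in TPTN against DOX went from -0.25 (adjusted p = 0.330) to -0.43 (adjusted p = 0.0304). Leukocytes carry the immunoproteasome constitutively: 12 leukocyte markers summed to 135 to 176 FPKM in control, 129 to 164 in DOX and 129 to 150 in TPTN. Lyz2 and C1qa weighed most in that sum, at means of 75.1 and 24.5 FPKM. Cd68, Adgre1, Csf1r and Ptprc were higher in every TPTN than in every control library, as 15.2% of all tested genes were. Lyz2, C1qa, C1qb and C1qc had lower means in TPTN than in control, with overlapping groups. No tested leukocyte marker passed in any comparison. The T and B cell markers Cd3e, Cd3g, Cd79a and Ms4a1 averaged at most 0.151 FPKM and were each listed at 0 in at least 1 library, which the other 8 markers never were. Of 10 genes of MHC class I presentation and interferon signalling, none passed in any comparison.

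**Figure D2:**
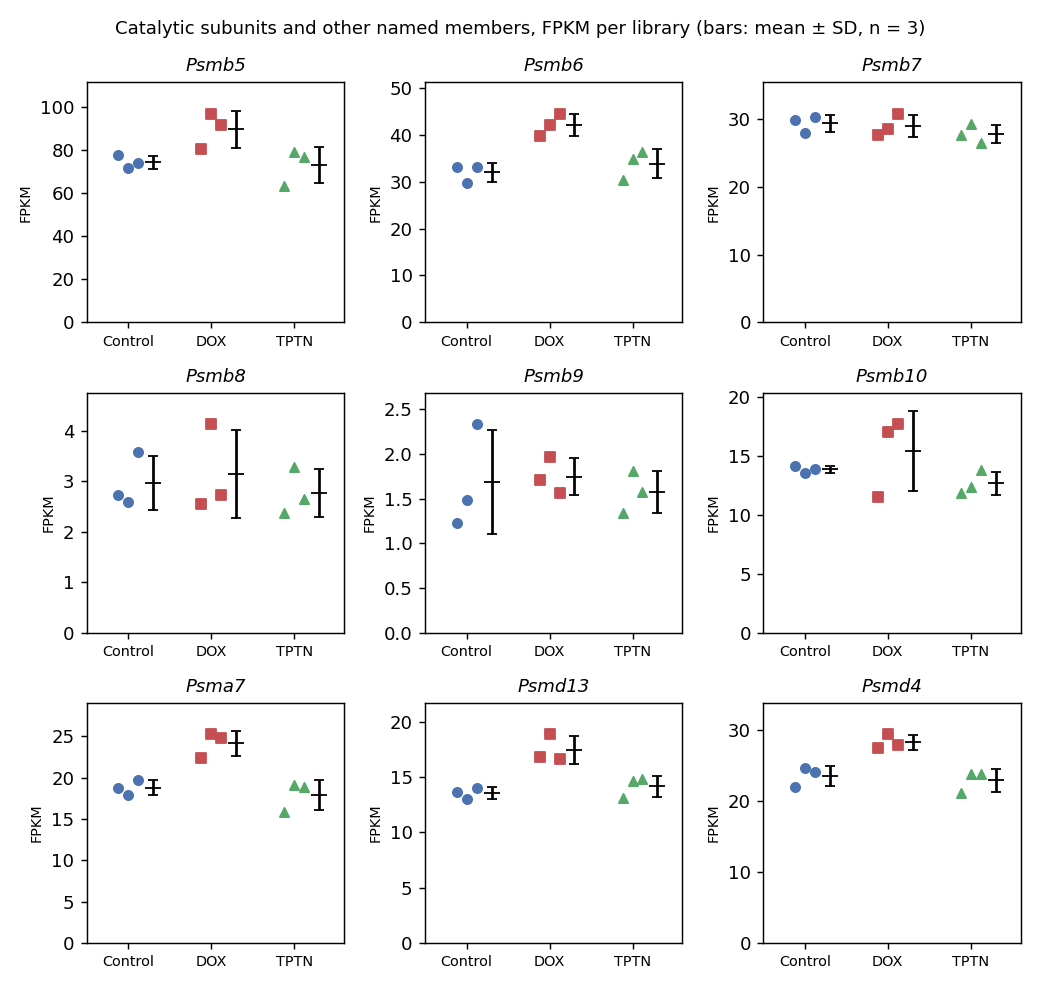
FPKM (vertical axes, from 0) of the 6 catalytic subunit genes and of Psma7, Psmd13 and Psmd4 in each library of the 3 groups, with mean and SD (n = 3). The DOX libraries are the 3 highest for Psmb5, Psmb6, Psma7, Psmd13 and Psmd4, and the groups overlap for Psmb7, Psmb8, Psmb9 and Psmb10.

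Within the alpha ring, which gates entry to the core, Psma7 stood against its neighbours. As a share of the ring's summed FPKM it was 11.6, 10.9 and 12.1% in the control libraries, 13.6, 13.7 and 13.6% in the DOX group and 10.51, 11.4 and 11.7% in the TPTN group. Psma7 was the 1 of 7 alpha genes whose share was higher in all DOX than in all control libraries, and Psma1, Psma2, Psma3 and Psma4 had a lower one, as some must when another member takes more. Relative to the ring's sum, 6.98% of all tested genes were higher and 10.6% lower. The 7 genes make up that sum, so their counts can not be judged against these percentages. Psma3 took 6.43, 5.90 and 6.20% in the control libraries, 5.42, 5.47 and 5.46% in the DOX group and 6.09, 6.05 and 6.07% in the TPTN group. In FPKM, the changes of Psma1 to Psma4 in DOX against control lay between -0.05 and 0.03. Psma6 changed by 0.19 (SE 0.08, adjusted p = 0.256) and Psma5 by 0.14 (SE 0.07, adjusted p = 0.317). Psma1 to Psma4, with the lower shares, also had transcripts of lower GC content than Psma5, Psma6 and Psma7. Within Psma1 to Psma4 the order did not follow it: Psma2 had the lowest GC content and the smallest fall in mean share. GC content was 51.3% for Psma7, 49.2 and 46.6% for Psma5 and Psma6, and 44.0, 39.4, 40.8 and 45.0% for Psma1 to Psma4. The part of GC content in these shares was not tested.

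Among the non-catalytic beta genes no member passed. Psmb3 read 19.2, 16.1 and 19.4 FPKM in the control libraries, 19.5, 24.5 and 24.8 in the DOX group and 17.3, 19.8 and 19.6 in the TPTN group. DOX replicate 1 was only just above control, and the change was 0.31 (SE 0.10, adjusted p = 0.148). Psmb2 read 35.3, 33.2 and 31.6 FPKM in the control libraries, 35.2, 39.9 and 36.3 in the DOX group and 37.0, 36.1 and 37.6 in the TPTN group. It was among the members with the smallest p in TPTN against control, at 0.14 (SE 0.07, adjusted p = 0.414), and its TPTN libraries lay above control and overlapped DOX.

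In the 19S cap, the genes with the smallest p in DOX had different roles. Psmd4 encodes a ubiquitin receptor of the cap, and read 21.9, 24.5 and 24.0 FPKM in the control libraries, 27.4, 29.4 and 27.9 in the DOX group and 21.1, 23.8 and 23.7 in the TPTN group. Every DOX library was above every other, with a change of 0.25 in DOX against control (SE 0.07, adjusted p = 0.0930) and -0.29 in TPTN against DOX (SE 0.07, adjusted p = 0.0536). Psmc3, an ATPase, read 54.0, 53.2 and 60.7 FPKM in the control libraries, 65.9, 71.5 and 66.0 in the DOX group and 52.3, 60.4 and 60.3 in the TPTN group. It had the same order of groups, with changes of 0.27 (SE 0.08, adjusted p = 0.0971) and -0.23 (SE 0.08, adjusted p = 0.133). The lid gene Psmd13, given above, changed by more than either. Of the other cap genes, Psmc1, Psmc2, Psmc5 and Psmd3 also lay wholly above control in DOX and Psmd7 wholly below, with changes of 0.18, 0.09, 0.13, 0.04 and -0.10 that did not pass (adjusted p = 0.204, 0.466, 0.443, 0.760 and 0.453). The median change in DOX against control was -0.01 over 8 lid genes and 0.11 over 6 ATPase genes, against 0.26 over the 3 constitutive catalytic genes, 0.03 over 7 alpha genes and 0.04 over all tested genes. Psmd12, a lid scaffold, changed by 0.00 (SE 0.06) and the base scaffold Psmd2 by -0.03 (SE 0.06).

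The summed FPKM of the cap genes over that of the core genes stayed between 0.887 and 1.01 in the 9 libraries, with all groups overlapping. Within the cap, Psmc3, Psmd4 and Psmd13 took a larger share in all DOX than in all control libraries and 8 of the 17 genes a smaller one, and in TPTN against DOX 4 genes, these 3 and Psmc1, took a smaller share and 7 a larger one. Relative to the summed cap, 7.84% of all tested genes separated upward and 12.2% downward between control and DOX, and 17.5% and 9.18% between DOX and TPTN. The 17 genes make up this sum, so a larger share of some lowers that of the others, which does not hold for genes outside it. The count of 8 of 17 can therefore not be judged against these percentages. Psmd4 was 5.82, 6.28 and 6.16% of the cap in the control libraries, 6.74, 6.90 and 6.73% in the DOX group and 5.69, 5.74 and 6.02% in the TPTN group. Psmd6, a lid gene, was 4.18, 4.38 and 4.24% in the control libraries, 3.68, 3.86 and 3.78% in the DOX group and 4.27, 4.25 and 3.95% in the TPTN group. Their shares thus moved in opposite directions within 1 particle. The Psmd4 transcript has 54.4% GC and that of Psmd6 47.1%, while Psmd3, with 58.3%, took a smaller share in DOX. The part of GC content here was not tested.

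**Figure D3:**
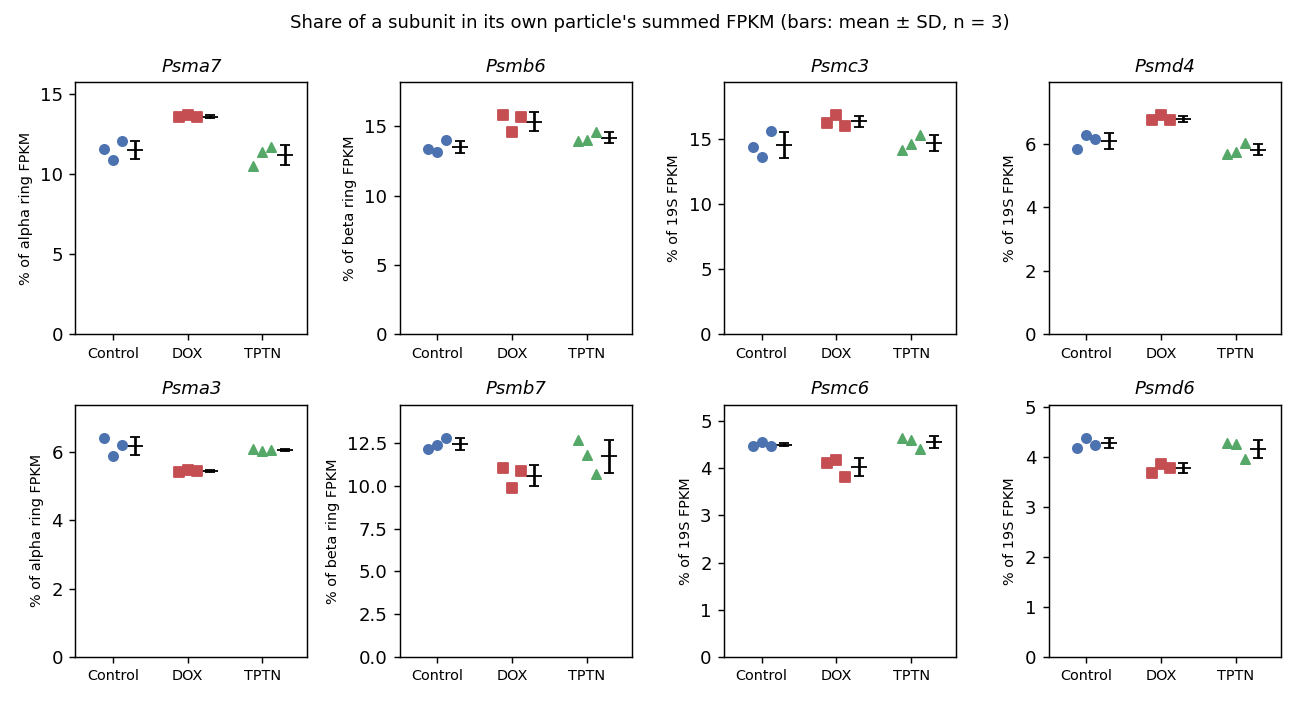
Share of 8 subunit genes in the summed FPKM of their own ring or particle (vertical axes in percent, from 0), per library with mean and SD (n = 3); the genes were picked after their values were seen. The 3 DOX libraries lie above control for Psma7, Psmb6, Psmc3 and Psmd4 and under it for Psma3, Psmb7, Psmc6 and Psmd6.

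Over the whole set, the share in the summed FPKM of the 48 tested genes was higher in all DOX than in all control libraries for 7 of 48 (Psma7, Psmb6, Psmd13, Psmd4, Psme1, Psme2b and Psmg3) and lower for 15, where 6.12% and 13.8% of all tested genes were relative to that sum. In TPTN against DOX it was lower for 6 (Psma7, Psmb5, Psmb6, Psmc3, Psmd13 and Psmd4) and higher for 11, where 6.08% and 20.3% of all genes were. The 48 genes make up this sum, so a larger share of some lowers that of the others, which does not hold for genes outside it. Their counts can therefore not be judged against these percentages. The 2 comparisons share the DOX libraries.

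Pairs of subunits give the same picture without any sum, though the pairs were picked after the values were seen. Psma7 over Psma1 was 0.803, 0.795 and 0.889 in the control libraries, 1.05, 1.09 and 1.11 in the DOX group and 0.757, 0.807 and 0.919 in the TPTN group. Psmd13 over Psmd12 was 0.584, 0.569 and 0.645 in the control libraries, 0.755, 0.809 and 0.742 in the DOX group and 0.595, 0.619 and 0.681 in the TPTN group. In both, the DOX libraries stood above all others, while the TPTN and control ranges overlapped. Psmd4 over Psmd2 had the same order of DOX over control and was lower still in TPTN, at 0.581 to 0.623 against 0.632 to 0.659 in control. In each pair the first gene has the higher GC content. It was 51.3 against 44.0% for Psma7 and Psma1, 53.4 against 47.9% for Psmd13 and Psmd12, and 54.4 against 51.3% for Psmd4 and Psmd2. A library trend on GC content can therefore move these ratios, and its part was not tested.

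Among the activators, Psme1 and Psme2 form the interferon-inducible 11S ring that opens the core without ubiquitin. Psme1 read 24.1, 24.4 and 26.6 FPKM in the control libraries, 30.4, 37.1 and 30.7 in the DOX group and 25.2, 29.5 and 30.6 in the TPTN group. DOX was above control in every library but overlapped TPTN, with a change of 0.37 (SE 0.10, adjusted p = 0.0727). Psme2 had the largest change of all members in DOX against control, 0.45 (SE 0.14, adjusted p = 0.135), with overlapping groups, and it passed without DOX replicate 1, at 0.59 (adjusted p = 0.0467). Psme2b, its near copy, read 9.62, 10.15 and 10.02 FPKM in the control libraries, 10.9, 12.7 and 11.8 in the DOX group and 11.7, 12.6 and 11.9 in the TPTN group. It was the member that stood above control in both other groups, with changes of 0.23 (adjusted p = 0.111) and 0.25 (adjusted p = 0.137). Psme4 encodes PA200, a large single-chain activator, and ran the other way: 32.1, 38.0 and 32.6 FPKM in the control libraries, 32.1, 30.6 and 23.1 in the DOX group and 27.0, 29.7 and 29.1 in the TPTN group. Its changes were -0.26 (SE 0.12, adjusted p = 0.263) in DOX and -0.25 (SE 0.12, adjusted p = 0.392) in TPTN against control.

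The assembly chaperones and the inhibitor passed in no comparison over all 9 libraries, and their mean levels ran from 1.36 FPKM for Psmd9 to 8.93 for Psmg2. Psmg1, which helps to assemble the alpha ring, read 7.62, 7.77 and 6.48 FPKM in the control libraries, 6.93, 9.99 and 9.11 in the DOX group and 6.77, 7.51 and 6.43 in the TPTN group; it is given for its call without 1 library and was chosen after its values were seen. DOX replicate 1 was the lowest of the DOX libraries. The change of -0.28 (SE 0.12, adjusted p = 0.210) in TPTN against DOX passed without DOX replicate 1, at -0.42 (adjusted p = 0.0468). Psmg3, a chaperone of the alpha ring, read 1.17, 1.10 and 1.26 FPKM in the control libraries, 1.38, 1.82 and 1.91 in the DOX group and 1.52, 1.46 and 1.23 in the TPTN group. Its change of 0.31 (SE 0.09, adjusted p = 0.102) in DOX against control passed without DOX replicate 1, at 0.40 (adjusted p = 0.0416). Psmd5, a chaperone of the cap's base, read 1.36, 1.53 and 1.32 FPKM in the control libraries, 1.69, 1.67 and 1.5003 in the DOX group and 1.43, 1.52 and 1.46 in the TPTN group, and overlapped between groups. Psmf1, which encodes the core inhibitor PI31, read 1.88, 1.97 and 1.78 FPKM in the control libraries, 2.08, 2.15 and 2.36 in the DOX group and 1.95, 1.97 and 2.12 in the TPTN group. Its DOX libraries lay above control, with a change of 0.15 (SE 0.07, adjusted p = 0.278). Psmc3ip read 0.801, 0.485 and 0.545 FPKM in the control libraries, 1.18, 0.616 and 0.706 in the DOX group and 0.538, 0.551 and 0.597 in the TPTN group, the highest being DOX replicate 1.

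**Figure D4:**
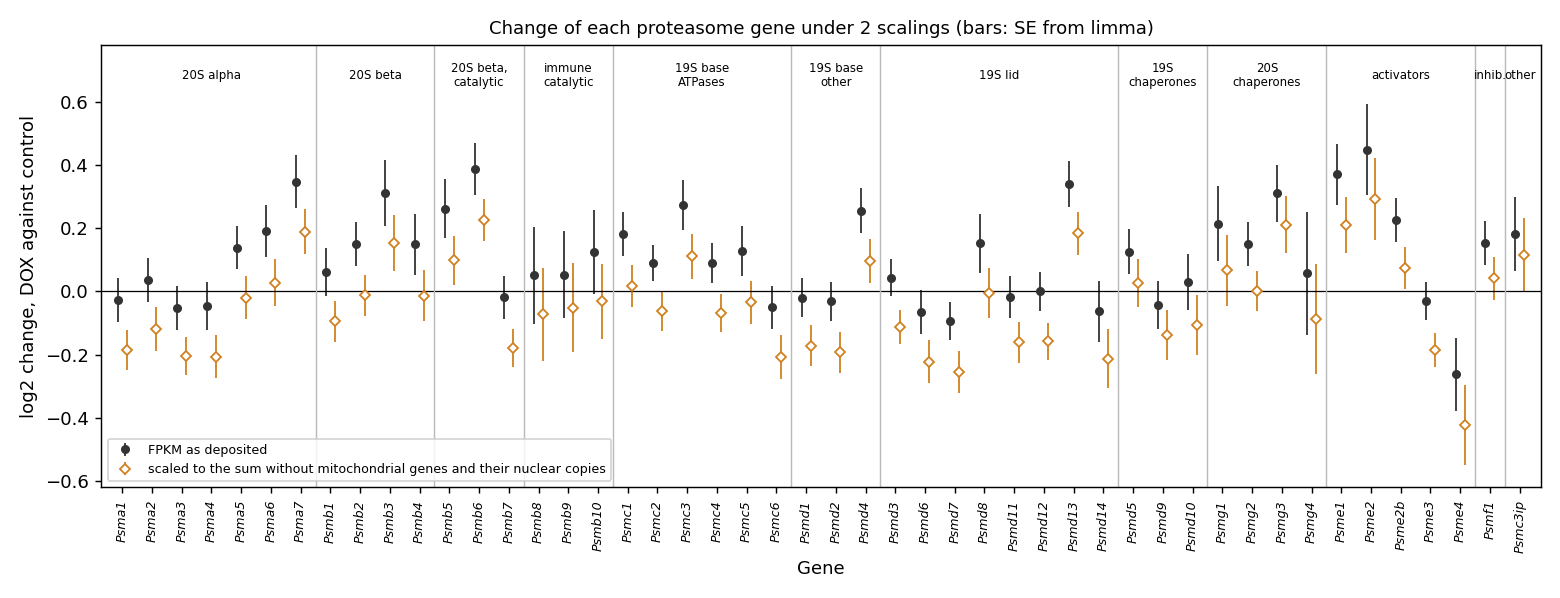
Change of each of 48 proteasome genes in DOX against control (vertical axis, log2, with limma SE), for FPKM as deposited (filled) and after the mitochondrial genes and their nuclear copies were left out of the library total (open). The scaling lowers nearly all genes by a similar step, taking their median from 0.11 to -0.04, and keeps Psmb6, Psma7 and Psmd13 above 0.

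As a group the 48 genes had a median change of 0.11 in DOX against control beside 0.04 for all tested genes, -0.09 in TPTN against DOX beside -0.01, and 0.01 in TPTN against control beside 0.04. The first 2 comparisons share the DOX libraries, so their opposite signs are not separate results. The sign of the first depended on the scaling: the median was 0.05 by median ratios, 0.01 by quantiles and -0.04 without mitochondrial genes, and that of TPTN against DOX went to 0.02 under the last of these. The medians of all tested genes were then -0.002, -0.01 and -0.07, and 0.08 in TPTN against DOX under the last. Under each of these scalings the members' median stayed above that of all genes in DOX against control and below it in TPTN against DOX. With the length and GC trend removed, the members' median in DOX against control was -0.003 beside -0.002 for all genes. Summed proteasome FPKM was 933, 928 and 939 in the control libraries, 973, 1077 and 1040 in the DOX group and 877, 987 and 956 in the TPTN group. As a share of FPKM outside the mitochondrial genes and their copies, the same sum was 0.560, 0.582 and 0.576% in the control libraries, 0.546, 0.586 and 0.557% in the DOX group and 0.542, 0.581 and 0.568% in the TPTN group. On the first scale every DOX library was above every control library, and on the second the groups overlapped.

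Members whose groups did not overlap were counted against all tested genes, in FPKM as deposited. The tested genes were not matched to the members for level or transcript length. In DOX against control 17 of 48 lay wholly above and 2 wholly below control, or 35.4% and 4.17%, where 17.7% and 5.1% of all tested genes did. In TPTN against DOX 9 lay below and 2 above, where 14.1% and 10.4% of all genes did. In TPTN against control 2 lay above and 3 below, where 15.2% and 6.03% did. No member passed the threshold in TPTN against control, where 0.336% of all genes rose and 0.384% fell. At an unadjusted p under 0.05 there was 1 member, Psme2b, which was higher, where 9.02% of all genes were higher and 4.12% lower. At the same level 13 members were higher and 1 lower in DOX against control, where 14.6% and 3.47% of all genes were, and 9 were lower and none higher in TPTN against DOX, where 12.9% and 7.78% were.

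Across the 48 genes, the change in DOX against control went with properties of the transcript. Pearson's r was 0.55 with GC content and -0.54 with length (Spearman 0.56 and -0.52), and for TPTN against DOX it was -0.51 and 0.48. Over 10865 tested genes with a protein-coding transcript r was 0.22 and -0.30 in the first comparison and -0.16 and 0.39 in the second. These are descriptions over genes measured in the same libraries, which are not independent replicates. Among the members that passed a test, Psmb6 has 798 bases and 55.8% GC, Psma7 1157 bases and 51.3%, and Psmd13 1989 bases and 53.4%, beside a median of 1435 bases and 49.8% for the 48 and 3090 bases and 50.4% for all. Once a trend on length and GC content was removed from each library, an alternative chosen after seeing the data, the median change of the members was -0.00 and no member passed in DOX against control, while Psmb6, Psmd13 and Psma7 were still higher by 0.23, 0.24 and 0.21 (adjusted p = 0.157, 0.116 and 0.178).

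**Figure D5:**
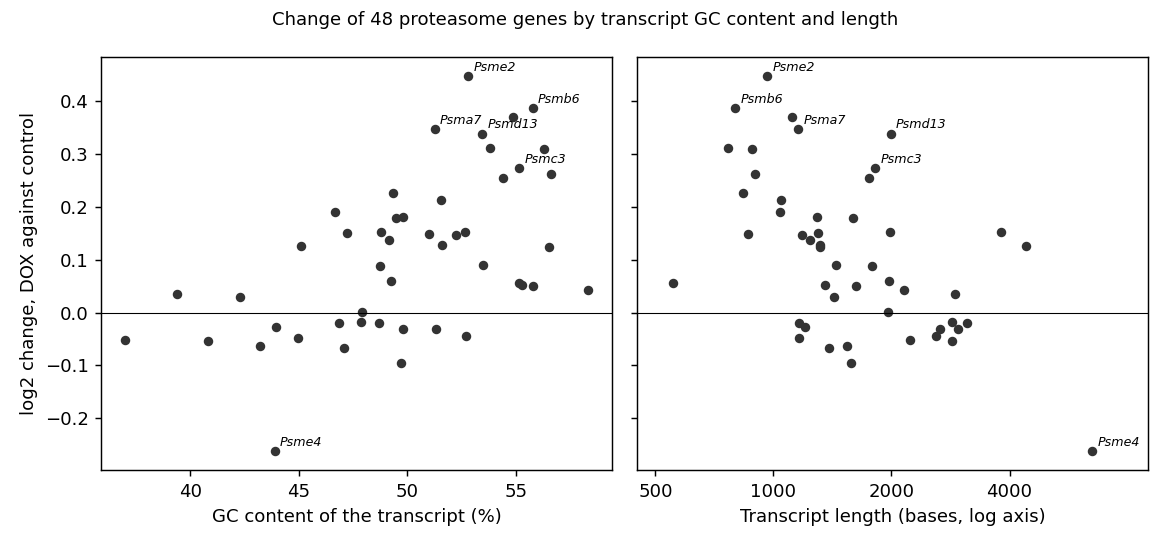
Change of 48 proteasome genes in DOX against control (vertical axis, log2) by GC content of the transcript in percent (left) and its length in bases on a log axis (right). Points rise to the right with GC content (r = 0.55) and fall with length (r = -0.54), Psme4 being the longest and lowest.

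The rest of the ubiquitin and proteasome pathway was read from lists of 48 genes reported here, of which 44 were in the table and all 44 were tested. In DOX against control 0 of the 44 passed in limma. At an unadjusted p under 0.05, 5 were higher and 3 lower, or 11.4% and 6.8%, where 14.6% and 3.47% of all tested genes were. The smallest p was that of Stub1, which encodes a chaperone-bound ubiquitin ligase, at 23.1, 21.9 and 21.7 FPKM in the control libraries, 25.9, 26.5 and 27.3 in the DOX group and 22.6, 24.3 and 23.6 in the TPTN group. Its DOX libraries were the 3 highest, with a change of 0.25 (adjusted p = 0.0559); it was picked after its values were seen. In TPTN against DOX 1 of the 44 rose and 1 fell, where 0.792% and 2.46% of all genes did, so these counts are close to the background. The polyubiquitin gene Ubb fell by 0.39 on the log2 scale (SE 0.08, adjusted p = 0.0286), from 244, 220 and 240 FPKM to 175, 186 and 176, but did not pass by quantiles, without mitochondrial genes or with the length and GC trend removed (adjusted p = 0.227, 0.0818 and 0.111). Zfand2a, whose arsenite-inducible product binds the proteasome, rose by 0.45 (SE 0.08, adjusted p = 0.0236), from 1.62, 1.503 and 1.48 FPKM to 2.46, 2.25 and 2.67, and passed under each scaling and with the trend removed (adjusted p = 0.0115 to 0.0282). In TPTN against control 0 of the 44 passed in limma, and 5 were higher and 3 lower at an unadjusted p under 0.05, where 9.02% and 4.12% of all genes were.

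Nfe2l1, the regulator named above, passed in no comparison. It read 69.6, 75.5 and 71.7 FPKM in the control libraries, 67.6, 66.3 and 65.5 in the DOX group and 69.5, 69.7 and 73.7 in the TPTN group. The DOX libraries were the 3 lowest, with a change of -0.12 against control (adjusted p = 0.322). Changes in DOX against control were 0.11 for Pomp, the maturation factor of the core, 0.04 for the ubiquitin receptor gene Adrm1 and 0.10 for Sem1, a small cap subunit, with adjusted p from 0.442 to 0.817. None of the 8 muscle ubiquitin ligase genes listed, Trim63 and Fbxo32 among them, passed in any comparison.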

How the data were processed

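Polyadenylated RNA from 9 heart libraries was sequenced as paired, strand-marked reads, per the labels' protocols. The authors deposited a table of FPKM values for 29237 genes. Per the submitters' processing notes, cutadapt 1.9, HISAT2 2.0.4, StringTie 1.3.4d, DESeq2, edgeR and GRCm38 were used, with no step given for each. FPKM divides by length and library total, so abundant transcripts move all others. The table's p-value, q-value and significance columns were not used, since the header does not name the groups compared. Counts were not used: within a tolerance of 0.05, just 11.4 to 14.6% of low values came out as whole multiples of the value taken as 1 fragment, so the depths are rough; in DOX replicate 3 and TPTN replicate 1 that value was doubled, by a rule adopted after seeing the data.

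log2(FPKM + 1) of the 12500 genes with a mean of at least 0.5 FPKM was fitted with limma 3.58.1 (trend, robust; R 4.3.3 and its data.table package, 1.17.8), all groups in 1 model, and Benjamini-Hochberg adjustment over all genes, threshold 0.05. Such changes understate those of low genes. The fit was also tested on simulated data. Members and lists were chosen with earlier results of these data known. Values per library are given for the catalytic subunits, the highest and lowest member, called members (or the 3 with the smallest p), the smallest p of each role and members whose share in their particle separated the groups (of these, examples); pathway genes are named if called or needed. A gene of the pathway lists is not reported here and was left out of their counts. Psme2, other subunits named with a change alone, and the pairs and shares set side by side were chosen after values were seen. GENCODE M21 gave positions, lengths and overlaps for 29154 genes. Python 3.11.15, pandas 2.3.3, numpy 2.4.6, scipy 1.17.1 and matplotlib 3.10.9 were used.

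Alternatives were median-ratio, quantile and non-mitochondrial scaling, a pseudocount of 0.1, no filter, a minimum mean of 1, no robust estimation, only the groups compared, the replicate number as a block, each library left out and, added after seeing the data, removal of a trend on length and GC content.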

Additional observations from a re-analysis of the deposited data

How the results depend on the processing

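In DOX against control, 0 members rose under median ratios, quantile scaling, non-mitochondrial scaling, no filter, only the groups compared, the replicate block and removal of the length and GC trend, beside 2 as reported, and 0 to 3 when single libraries were left out: 0 without Control replicate 1, 2 or 3, DOX replicate 2 or 3 or TPTN replicate 2, and 1 without TPTN replicate 3. Psma7 passed beside Psmb6 and Psmd13 at a minimum mean of 1 (adjusted p = 0.0445) and without TPTN replicate 1 (adjusted p = 0.038). In TPTN against DOX, 1 member (Psme3) rose under non-mitochondrial scaling, and 0 fell with no filter or with the trend removed, 2 at a minimum mean of 1 (Psma7 and Psmd4), and 0 to 3 with single libraries left out (3 without DOX replicate 1: Psma7, Psmb10 and Psmg1; 0 without DOX replicate 2 or 3 or any TPTN library). The cause of these losses was not tested. The members' median change in DOX against control was 0.046, 0.0066 and -0.043 under median ratios, quantiles and non-mitochondrial scaling and -0.0030 with the trend removed, and in TPTN against DOX 0.021 and -0.017 under the last 2. Those of all tested genes were -0.0016, -0.010, -0.071 and -0.0021 in the first comparison, and 0.085 and 0.0023 in the second.

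The labels do not say that replicate numbers pair the libraries. Deviations of same-numbered libraries from their group means correlated at -0.26 to 0.02, and those of differently numbered ones at -0.25 to 0.40. With 3 libraries a group these correlations cannot settle whether libraries were paired. With the replicate block the genes past the threshold went from 329 to 170, 407 to 159 and 90 to 62, and among the members the 2 calls in DOX against control were lost and Psma7 in TPTN against DOX was kept (1 fell). Over all genes the count past the threshold in DOX against control was 279 higher and 50 lower as reported, 110 and 63 by median ratios, 76 and 67 by quantiles, 61 and 209 without mitochondrial genes, 149 and 27 with only the groups compared, 2 and 0 with no filter, and 17 and 20 with the trend removed.

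Over all 48 members, signs turned under these 4 settings only in changes that were not called: by median ratios, quantiles, non-mitochondrial scaling and trend removal, 5, 9, 16 and 10 turned in DOX against control, 1, 8, 12 and 13 in TPTN against DOX, and 8, 2, 2 and 4 in TPTN against control. Among the members chosen by the naming rule they were, in DOX against control, Psmb10, Psmb2, Psmb8 and Psmb9 without mitochondrial genes (-0.032, -0.012, -0.073 and -0.052) and Psmb10, Psmb8 and Psmb9 with the trend removed (-0.017, -0.074 and -0.082). In TPTN against DOX they were Psmb2 by median ratios (0.0055), Psmb2 and Psmb7 by quantiles (0.12 and 0.039), Psmb2, Psmb7 and Psmf1 without mitochondrial genes (0.12, 0.072 and 0.0076), and Psmb2, Psmb7, Psmb9 and Psme4 with the trend removed (0.13, 0.062, 0.029 and -0.076). In TPTN against control they were Psmb3 and Psmc3 by median ratios (-0.0012 and -0.010) and Psmd5 by quantiles (-0.00069) and with the trend removed (-0.0089). With single libraries left out, DOX against control ranged from -0.062 to 0.015 for Psmb7, -0.11 to 0.16 for Psmb8 and -0.072 to 0.22 for Psmb9. TPTN against DOX ranged from -0.044 to 0.046 for Psmb2, -0.22 to 0.044 for Psmb8, -0.023 to 0.076 for Psme2b and -0.13 to 0.10 for Psme4. TPTN against control ranged from -0.11 to 0.014 for Psma7, -0.033 to 0.11 for Psmb3, -0.090 to 0.064 for Psmb5, -0.17 to 0.037 for Psmb8, -0.17 to 0.13 for Psmb9, -0.095 to 0.044 for Psmc3ip and -0.084 to 0.018 for Psmd4.

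With 3 libraries a group, members just under and just over the threshold cannot be told apart, and depth is known only roughly.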
